A study of Ictidomys tridecemlineatus with 15 samples.

Results

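Transcription of 10 genes of the NRF2 and antioxidant defence system was followed through the torpor-arousal cycle in the liver of the 13-lined ground squirrel, a small hibernator. The genes are Nfe2l2 (which encodes NRF2), Keap1, Gclc, Gclm, Cat, Sod1, Sod2, Prdx1, Txnrd1 and Gsr, and each was matched by symbol, ignoring case, to the names of the transcription units in the count table. All 10 had a unit, out of 6324 units in the table. Transcription was measured by GRO-seq, a nuclear run-on assay: nuclei are isolated, RNA polymerases that had begun a transcript before isolation add labelled nucleotides to it, and the labelled RNA is sequenced. The reads therefore count nascent transcripts, and steady-state RNA is not measured. The livers came from laboratory-housed females of a breeding colony, 1 animal per library, with 3 libraries of SA (the homeothermic period before hibernation), 3 of IBA (aroused and warm between torpor bouts), 3 of Ent (cooling into torpor), 3 of ET (early torpor) and 2 of LT (late torpor). No drug, transgene or mutation was involved, and ages were not given in the sources used here. A further LT library was not analysed here.

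NRF2 is a transcription factor that turns on genes for glutathione synthesis, thioredoxin recycling and detoxification. KEAP1 holds it in the cytoplasm and marks it for destruction until oxidants or electrophiles modify KEAP1 and let NRF2 build up, so the pathway is mostly governed at the level of protein. In the liver the same defence also rests on superoxide dismutases, which turn superoxide into hydrogen peroxide, and on catalase, peroxiredoxins and the glutathione system, which remove the peroxide.

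Of the 10 units, 6 hold a single gene (Nfe2l2, Keap1, Gclc, Sod1, Sod2 and Gsr) and 4 were merged by the study with an overlapping neighbour, so that their counts cannot be divided. Gclm shares its unit with Dnttip2, Cat with the long non-coding RNA gene LOC110598364, Prdx1 with LOC101978248 (Ccdc163 in RefSeq) and Txnrd1 with Eid3. On the HiC_Itri_2 build the units lie at chr6:138015003-138066799 on the minus strand (Nfe2l2), chr2:209561572-209583230 on the plus strand (Keap1), chr8:56532114-56588523 on the minus strand (Gclc) and chr17:56785278-56832786 on the plus strand (Gsr). The superoxide dismutases lie at chr18:27115449-27127002 on the plus strand (Sod1) and chr8:143920366-143939253 on the minus strand (Sod2). The merged units, all on the minus strand, span chr11:103544493-103590712 (Gclm), chr3:30455229-30512059 (Cat), chr11:60807287-60828162 (Prdx1) and chr4:17165174-17233552 (Txnrd1). Each unit is a gene body, introns included, without its first 500 nt. According to the paper, units of many genes were lengthened where transcription called in any state ran further 3' than the annotation. Overlapping genes were merged afterwards. The paper also reports polymerase past gene ends during torpor, so a unit can hold reads from beyond its gene. The part of such reads in higher levels in the cold states, or in levels per nt, was not tested for these units. Total counts per library ranged from 3713883 to 8884763, and the 10 units had between 166 and 16454 counts in a library. Levels are given as CPM, in which the count of a unit is divided by the size of its library after TMM normalization, so that libraries can be set side by side. They are thus relative to the other units, and a change in total transcription between states is not seen. The paper states that scaling by library size hides such changes between hibernation stages. Higher, lower, rose and fell are meant in this relative sense. Differences are log2 fold changes from the fit, with their standard error (SE).

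The 10 genes did not move as a block between warm and cold livers. Relative transcription of Keap1, Sod2 and the Txnrd1 unit was higher in the cold ET and LT livers than in SA and IBA. That of Sod1 and the Cat unit was lower. These 5 of 10 units passed an adjusted p of 0.001 (edgeR quasi-likelihood test, Benjamini-Hochberg adjustment over all units), the threshold used throughout, where 36.3% of all units did. The 3 that rose compare with 18.6% of all units and the 2 that fell with 17.6%. At an adjusted p of 0.05, 9 of 10 passed, beside 64.5% of all units. The median log2 fold change of the 10 was 0.05, beside -0.04 over all units, and their median absolute log2 fold change was 0.70, beside 0.54 over all units. In the test over all 5 states, Sod1 (adjusted p = 0.0001) and the Txnrd1 unit (adjusted p = 0.00043) passed 0.001, a share of 2 in 10 beside 25.5% of all units, and 9 of 10 passed 0.05, beside 62% of all units. Across a full torpor bout, from IBA to LT, 3 of 10 passed 0.001 (17.4% of all units) and 7 of 10 passed 0.05 (49.8% of all units). These counts are within 3 units of what the background share gives for 10 units. The IBA and LT libraries did not overlap for 9 of 10 members, beside 74.4% of all units.

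The states also differed in when and from what the libraries were made. The ET animals were all collected in one hibernation season, the LT animals in another and the IBA animals in yet another, whereas SA and Ent mix the seasons of LT and IBA, so season and state cannot be told apart wherever ET enters, and IBA and LT can be compared beside a season term only through SA and Ent. The liver is mostly hepatocytes, and the 9 hepatocyte markers used that have a unit of their own (Apob, Ttr, Tf, Cps1, Hnf4a, Fgb, Fgg, Pck1 and Tat, of 16 listed) summed to between 12625 and 23905 CPM in the SA and IBA libraries and between 4005 and 7632 CPM in the ET and LT libraries. From warm to cold 6 of these 9 fell past an adjusted p of 0.001 and 0 rose past it, where 17.6% of all units fell and 18.6% rose. In a whole liver, fewer nuclei of a cell type and less transcription per nucleus cannot be told apart. The 4 endothelial markers summed to between 213 and 266 CPM in the warm and between 137 and 220 CPM in the cold libraries, with 2 of 4 lower past 0.001, and the single units of the macrophage marker Cd14 (18.9 to 35.95 CPM warm, 7.07 to 19.4 CPM cold), the stellate marker Rgs5 (42.4 to 73.0 CPM warm, 32.9 to 56.1 CPM cold) and the cholangiocyte marker Sox9 (16.5 to 41.0 CPM warm, 7.07 to 18.1 CPM cold) were low throughout. From warm to cold Sox9 also fell past 0.001, whereas Cd14 and Rgs5 did not, and 17.6% of all units fell past it. No erythroid or lymphocyte marker had a unit of its own. The part of cell makeup in the changes described here was not tested.

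**Figure D1:**
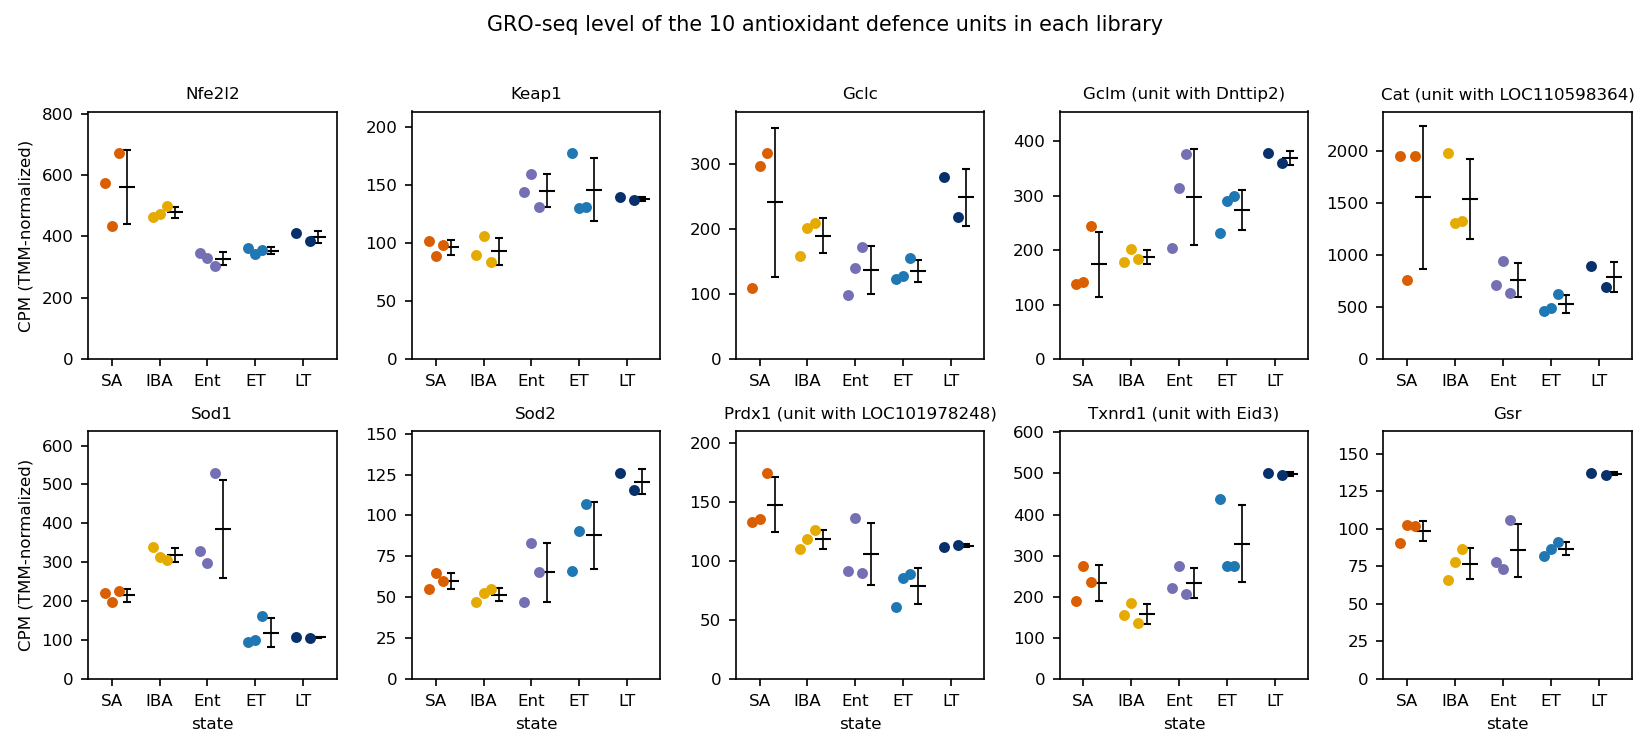
CPM of each antioxidant unit (vertical axis, TMM-normalized, from 0) in each of the 14 libraries, by state (horizontal axis); points are libraries, and the black bar beside them is the mean with the standard deviation over 3 libraries (2 in LT). Sod1 is low in all 5 ET and LT libraries, whereas Txnrd1, Sod2 and Gsr are highest in LT.

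Nfe2l2 and Keap1 went in opposite directions as the animals entered torpor. Nfe2l2 stood at 574, 433 and 673 CPM in the SA libraries, 464, 472 and 498 in IBA, 347, 329.6 and 305 in Ent, 362, 342 and 357 in ET, and 412 and 385 in LT. All 6 warm libraries lay above all 8 libraries of Ent, ET and LT. The fitted log2 fold change from warm to cold was -0.46 (SE 0.11, adjusted p = 0.0023), past 0.05 but not 0.001. With uniquely mapped reads as library size it was -0.24 (adjusted p = 0.072). Keap1, whose product is the adaptor of the ubiquitin ligase that removes NRF2, stood at 102, 89.4 and 98.4 CPM in SA, 89.5, 106 and 83.5 in IBA, 145, 159.6 and 131 in Ent, 178, 130 and 131 in ET, and 139 and 137 in LT. Every Ent, ET and LT library was above every SA and IBA library. From warm to cold Keap1 rose by a log2 fold change of 0.58 (SE 0.11, adjusted p = 0.00048). This call was lost without SA replicate 2 or 3, IBA replicate 1 or 3 or either LT library (adjusted p of up to 0.0027), while Nfe2l2 passed 0.001 without SA replicate 2 (-0.54, adjusted p = 0.00013) and with DESeq2 (-0.44, adjusted p = 0.00021). Groups that did not overlap from warm to cold were found for 4 of 10 members, beside 40.5% of all units.

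For both genes most of the difference was already there in Ent. From IBA to Ent the log2 fold change was -0.55 (SE 0.14, adjusted p = 0.024) for Nfe2l2 and 0.64 (SE 0.15, adjusted p = 0.014) for Keap1, both past 0.05 but not 0.001, with no overlap between the 3 libraries of each state. Such a gap between IBA and Ent was found for 5 of 10 members, beside 43.4% of all units. The third member past 0.05 at this step was the Cat unit, and 3 in 10 compares with 16.1% of all units, while 0 of 10 passed 0.001 in edgeR, DESeq2 or limma-voom, beside 0.0316% of all units in edgeR. Of all units 447 passed 0.001 at this step in DESeq2 and 1 in limma-voom. With an unadjusted p in edgeR 5 of 10 were under 0.05, beside 32.5% of all units. From Ent to ET the values were 0.11 (adjusted p = 0.59) and 0.01 (adjusted p = 0.97), and from ET to LT 0.17 (adjusted p = 0.89) and -0.08 (adjusted p = 0.96), so neither gene passed 0.05 at either later step. The LT libraries of Nfe2l2 were nevertheless both above all 3 ET libraries. Set against IBA, Nfe2l2 in LT was at -0.26 on the log2 scale (SE 0.16, adjusted p = 0.19), not past 0.05. With uniquely mapped reads as library size its adjusted p was 0.7. Both LT libraries of Nfe2l2 still lay below all 3 IBA libraries. Keap1 in LT was at 0.57 relative to IBA (SE 0.16, adjusted p = 0.012), past 0.05 but not 0.001. Beside a season term this Keap1 value was 0.41 (adjusted p = 0.18). With season as a covariate the IBA to Ent values were -0.62 (adjusted p = 0.054) and 0.53 (adjusted p = 0.08), and with uniquely mapped reads as library size that of Nfe2l2 was -0.40 (adjusted p = 0.067). The IBA to Ent call at 0.05 was lost for Nfe2l2 without any 1 of IBA replicates 1, 2 and 3 and Ent replicates 2 and 3 (adjusted p of up to 0.081) and for Keap1 without IBA replicate 1 or 3 or Ent replicate 2 (up to 0.06).

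The ratio of Nfe2l2 to Keap1 within a library, with counts taken per nt of unit, does not depend on how libraries are scaled. It was chosen after the values were seen and is given with no test. As the mean ± SD over 3 libraries (2 in LT), it was 2.41 ± 0.419 in SA, 2.18 ± 0.319 in IBA, 0.946 ± 0.0739 in Ent, 1.03 ± 0.157 in ET and 1.205 ± 0.0424 in LT. The 6 warm libraries ranged from 1.86 to 2.86 and the 8 of Ent, ET and LT from 0.852 to 1.235, with no overlap. This gap had to follow, since each gene alone already separated these libraries, in opposite directions, so it adds no further evidence.

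Nfe2l2 is crossed by another gene. Hnrnpa3, on the plus strand, lies wholly within the Nfe2l2 unit and covers 42.0% of it, and LOC106144870, also on the plus strand, overlaps it by 336 nt. The reads are strand-specific, and the strand setting of the counting is not given in the sources used here. Hnrnpa3 had more counts than the unit that encloses it in 8 of 14 libraries, which counting without strand could not give, since every read of the enclosed unit would then count for the enclosing one as well or for neither. Its own log2 fold change from warm to cold was 0.54 (SE 0.10, adjusted p = 0.00037), opposite to that of Nfe2l2.

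The single-gene units whose pattern was most like that of a member were taken by the Pearson r of log2 CPM over the 14 libraries, which share their scaling and their states. For Nfe2l2 these were Pigx, of the glycosylphosphatidylinositol anchor pathway (r = 0.93), and Smarca2, an ATPase of chromatin remodelling complexes (r = 0.93), at 349 CPM on average in SA and 154 in ET. For Keap1 they were Fth1, the heavy chain of the iron store ferritin (r = 0.92), with a mean of 35.1 CPM in IBA and 86.4 in ET, and Mical2, a monooxygenase that oxidizes actin (r = 0.92).

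**Figure D2:**
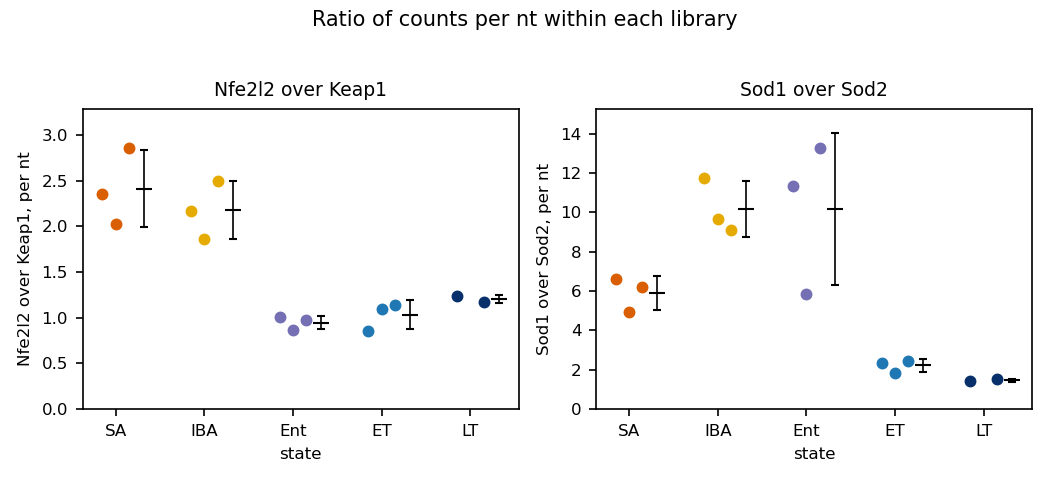
Ratio of counts per nt of Nfe2l2 to Keap1 (left) and of Sod1 to Sod2 (right) in each of the 14 libraries, by state; points are libraries and black bars are means with standard deviations over 3 libraries (2 in LT). The Nfe2l2 to Keap1 ratio is between 1.86 and 2.86 in the SA and IBA libraries and at most 1.235 from Ent on, and the Sod1 to Sod2 ratio drops between Ent and ET.

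Of the genes of glutathione synthesis and recycling, Gsr was higher in both LT libraries than in any other library, whereas Gclc and the Gclm unit overlapped between LT and an earlier state. Gclc encodes the catalytic subunit of glutamate-cysteine ligase, the enzyme that sets the rate of glutathione synthesis, and Gclm its modifier subunit. Gclc stood at 109.9, 297 and 317 CPM in SA, 159, 202 and 209 in IBA, 98.4, 140.4 and 172 in Ent, 124, 128 and 155 in ET, and 279.7 and 218 in LT. SA replicate 1 was far below the other SA libraries and lay between the lowest Ent and the lowest ET library, and both LT libraries were above all IBA, Ent and ET libraries. Gclc was the member that did not pass 0.05 from warm to cold, with a log2 fold change of -0.22 (SE 0.24, adjusted p = 0.43), nor among the 5 states (adjusted p = 0.076). Without SA replicate 1 the adjusted p were 0.042 from warm to cold, where the log2 fold change was -0.39, and 0.0017 among the 5 states.

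The unit of Gclm and Dnttip2 stood at 138, 141 and 244 CPM in SA, 178, 202 and 184 in IBA, 203, 314 and 376 in Ent, 231, 290.1 and 299.9 in ET, and 379 and 361 in LT. The IBA libraries lay below all Ent, ET and LT libraries, while SA replicate 3 overlapped with ET. The log2 fold change was 0.81 from warm to cold (SE 0.18, adjusted p = 0.0015) and 0.98 from IBA to LT (SE 0.26, adjusted p = 0.0088), past 0.05 but not 0.001. Without LT replicate 1 the IBA to LT value had an adjusted p of 0.051. The warm to cold value passed 0.001 without SA replicate 3 (adjusted p = 0.00019) or Ent replicate 1 (adjusted p = 0.00066), with DESeq2 (5e-05), with uniquely mapped reads as library size (0.00027) and in a fit of the compared states alone (0.00096), as did the IBA to LT value in such a fit (0.00055).

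Gsr encodes glutathione reductase, which returns oxidized glutathione to its reduced form with NADPH. It stood at 90.6, 103 and 102 CPM in SA, 65.9, 78.2 and 86.2 in IBA, 78.02, 73.2 and 106 in Ent, 82.2, 86.8 and 91.1 in ET, and 137 and 136 in LT. Both LT libraries were above all 12 others, and the IBA libraries were all below the SA libraries. The log2 fold change from IBA to LT was 0.83 (SE 0.17, adjusted p = 0.0014), and 1.16 (adjusted p = 0.0012) with season as a covariate. It passed 0.001 without Ent replicate 3 (adjusted p = 0.00048), with DESeq2 (1.7e-05), with uniquely mapped reads as library size (0.00072) and among single-gene units alone (0.00087). From warm to cold it was 0.32 (SE 0.11, adjusted p = 0.024), a value that missed 0.05 without SA replicate 1, IBA replicate 1, ET replicate 3, LT replicate 1 or LT replicate 3 (adjusted p of up to 0.063).

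In the thioredoxin system the Txnrd1 unit and the Prdx1 unit differed. Txnrd1 encodes the cytosolic thioredoxin reductase, a selenoprotein, and Prdx1 a peroxiredoxin that thioredoxin regenerates. The unit of Txnrd1 and Eid3 stood at 189, 275 and 236 CPM in SA, 157, 185 and 136 in IBA, 221, 275 and 206 in Ent, 438, 276 and 274 in ET, and 502 and 496 in LT. The LT libraries were above all others, IBA below all others, and ET replicate 1 stood apart from the other ET libraries. From IBA to LT the unit rose 3.14-fold (log2 fold change 1.65, SE 0.23, adjusted p = 0.00012), and from warm to cold by a log2 fold change of 1.07 (SE 0.15, adjusted p = 5.6e-05). The warm to cold call held without each library in turn (adjusted p of at most 0.00041), and that over the 5 states was lost without IBA replicate 1 or 3 or either LT library (up to 0.0031). The IBA to LT value had adjusted p of 0.0016 without LT replicate 1, 0.0012 without LT replicate 3 and 0.0024 with season as a covariate (log2 fold change 1.73). The single-gene units most like it over the 14 libraries were Nmt1, an N-myristoyltransferase (r = 0.93), and Aldh2, the mitochondrial aldehyde dehydrogenase (r = 0.93), whose mean went from 121 CPM in IBA to 269 in LT.

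The unit of Prdx1 and LOC101978248 stood at 133, 135 and 175 CPM in SA, 109.7, 119 and 126 in IBA, 91.9, 136 and 89.8 in Ent, 61.3, 85.6 and 89.2 in ET, and 112 and 114 in LT. The ET libraries were below all others, whereas LT overlapped with IBA. The log2 fold change from warm to cold was -0.49 (SE 0.14, adjusted p = 0.0095), past 0.05 but not 0.001, and that from IBA to LT was -0.07 (SE 0.21, adjusted p = 0.81). With uniquely mapped reads as library size the warm to cold value was -0.26 (adjusted p = 0.14), and the adjusted p over the 5 states went from 0.014 to 0.11.

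The superoxide dismutases changed in opposite directions. Sod1 encodes the copper and zinc enzyme of the cytosol, and it stood at 222, 197 and 227 CPM in SA, 339.6, 313 and 305 in IBA, 328, 299.5 and 530.4 in Ent, 95.7, 101 and 161 in ET, and 109 and 106 in LT. All 5 ET and LT libraries were below all 9 SA, IBA and Ent libraries, and Ent replicate 3 was above every other library. From Ent to ET Sod1 fell 3.23-fold (log2 fold change -1.69, SE 0.23, adjusted p = 0.00054), the only one of 10 members past 0.001 or 0.05 at that step, where 2.21% and 28.8% of all units passed. The Ent and ET libraries did not overlap for Sod1, the Cat unit and the Prdx1 unit, 3 of 10 members beside 43.2% of all units. From warm to cold the log2 fold change was -1.21 (SE 0.17, adjusted p = 5.8e-05), and from IBA to LT -1.57 (SE 0.26, adjusted p = 0.00044). The warm to cold call held without each library in turn (adjusted p of at most 0.00069). The Ent to ET value stayed past 0.05 in every fit but not past 0.001 without any 1 of 10 libraries, namely all IBA, Ent and LT libraries and ET replicates 1 and 2 (adjusted p of up to 0.0033), or in a fit of Ent and ET alone (0.0093), and the IBA to LT value missed 0.001 without any IBA or LT library (up to 0.0072), with uniquely mapped reads as library size (-1.38, adjusted p = 0.0013) and with season as a covariate (log2 fold change -1.22, adjusted p = 0.012).

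The Sod1 unit lies wholly within that of G14724 and Scaf4 on the opposite strand. Sod1 had more counts than this enclosing unit in 9 of 14 libraries. The enclosing unit had a log2 fold change of 0.12 from Ent to ET (adjusted p = 0.53) and 0.29 from warm to cold (adjusted p = 0.023), so the fall of Sod1 was not shared by the opposite strand. The single-gene units most like Sod1 were PHYH_like (r = 0.95), with a mean of 58.3 CPM in Ent and 18.9 in ET, and G20495 (r = 0.91).

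Sod2, the manganese enzyme of the mitochondrial matrix, stood at 54.95, 64.9 and 60 CPM in SA, 47.2, 52.9 and 54.9 in IBA, 47.1, 83.5 and 65.2 in Ent, 66.1, 90.4 and 107 in ET, and 126 and 115 in LT. All 5 ET and LT libraries were above all 6 SA and IBA libraries, while Ent overlapped with both sides. Sod2 rose by a log2 fold change of 0.89 from warm to cold (SE 0.16, adjusted p = 0.00028) and of 1.22 from IBA to LT (SE 0.23, adjusted p = 0.00089). Without IBA replicate 1, LT replicate 1 or LT replicate 3 the adjusted p from warm to cold was between 0.0011 and 0.0019. The IBA to LT value missed 0.001 without any of 10 libraries, namely all SA, IBA and LT libraries, Ent replicate 3 and ET replicate 2 (adjusted p of up to 0.011), with limma-voom (1.21, adjusted p = 0.0012), with upper-quartile normalization (1.19, adjusted p = 0.0016) and with season as a covariate (1.31, adjusted p = 0.0098).

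Within a library, the ratio of Sod1 to Sod2 counts per nt was 5.91 ± 0.852 in SA, 10.18 ± 1.41 in IBA, 10.18 ± 3.86 in Ent, 2.22 ± 0.340 in ET and 1.46 ± 0.0692 in LT (mean ± SD, 3 libraries, 2 in LT). Like the ratio above it was chosen after the values were seen and has no test. It was between 4.96 and 13.3 in the 9 SA, IBA and Ent libraries and between 1.41 and 2.46 in the 5 ET and LT libraries.

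Catalase breaks down hydrogen peroxide in peroxisomes. The unit of Cat and LOC110598364 stood at 1948, 765 and 1955 CPM in SA, 1984, 1309 and 1326 in IBA, 714, 948.5 and 633 in Ent, 466, 493 and 630.2 in ET, and 893 and 690.1 in LT. SA replicate 2 was below every other warm library and also below Ent replicate 2 and LT replicate 1, whereas the other 5 warm libraries were above all Ent, ET and LT libraries. From warm to cold the unit fell 2.39-fold (log2 fold change -1.26, SE 0.25, adjusted p = 0.00063). Its log2 fold change from IBA to Ent was -1.01 (SE 0.32, adjusted p = 0.049) and from IBA to LT -0.96 (SE 0.36, adjusted p = 0.043). The warm to cold value without SA replicate 2 was -1.42 (adjusted p = 2.1e-05). Without any 1 of 11 of the other libraries (all but Ent replicates 2 and 3) its adjusted p missed the threshold, at up to 0.0062, and it was 0.0016 in a fit of the compared states alone and 0.0019 with uniquely mapped reads as library size. The IBA to Ent value missed 0.05 without any IBA, Ent, ET or LT library (up to 0.18) and with limma-voom (0.051), RLE scaling (0.05), upper-quartile normalization (0.054) or uniquely mapped reads as library size (0.067). The IBA to LT value missed it without any of IBA replicates 1 and 3, Ent replicate 1, ET replicates 2 and 3 and both LT libraries (up to 0.22) and with uniquely mapped reads as library size (0.085).

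**Figure D3:**
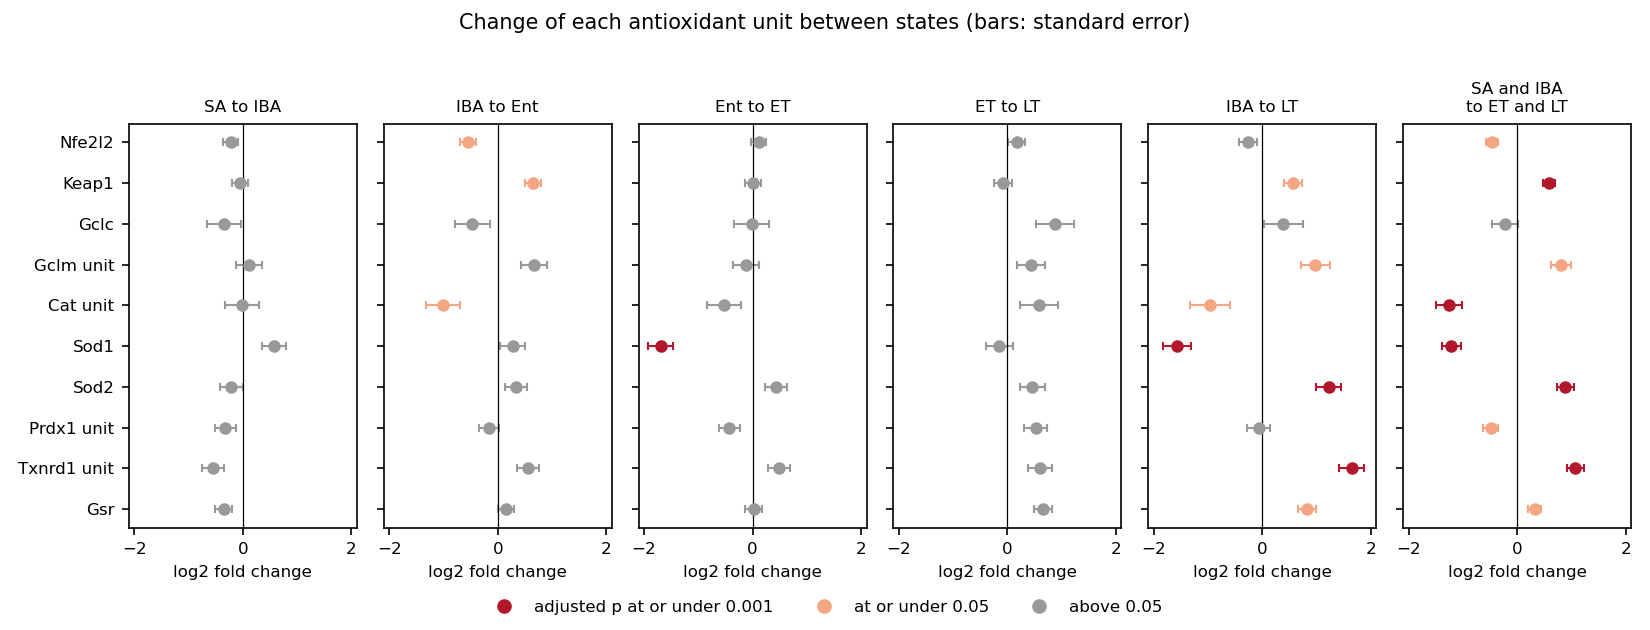
Log2 fold change (horizontal axis, second state over first) of each antioxidant unit in 6 comparisons, with standard errors as bars; dark red marks an adjusted p at or under 0.001, light red at or under 0.05 and grey above 0.05. From ET to LT 8 of 10 points lie to the right of 0 with none past 0.05.

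Within torpor, from ET to LT, 0 of 10 members passed 0.05 in edgeR or limma-voom, and 1, Gsr, did in DESeq2 (adjusted p = 0.022). In DESeq2 37 of all units passed 0.001 at this step, and the share past 0.05 in DESeq2 is not given here. Over all units 17 passed 0.05 in edgeR, or 0.269%, and 0% passed 0.001. The fitted value was above 0 for 8 of 10 members, beside 47.9% of all units. The LT libraries were above all ET libraries for the same 8 (Nfe2l2, Gclc, the Gclm unit, the Cat unit, Sod2, the Prdx1 unit, the Txnrd1 unit and Gsr), beside 10.8% of all units, and the median log2 fold change was 0.49 beside -0.01. It was 0.88 for Gclc (SE 0.35, adjusted p = 0.49), 0.66 for Gsr (SE 0.17, adjusted p = 0.16), 0.60 for the Txnrd1 unit (SE 0.23, adjusted p = 0.43) and 0.52 for the Prdx1 unit (SE 0.21, adjusted p = 0.49). Unadjusted p were under 0.05 for these 4, or 40% beside 8.7% of all units. The 8 values stayed above 0 under each of the other scalings. ET and LT come from different seasons, which cannot be told apart from the stage of torpor.

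The members lie at different distances from their neighbours, and the units of both can reach past the annotated 3' end of the gene. The nearest unit upstream on the same strand was 33347 nt away for Sod1 (NT5C3A_containing) and 74837 nt for Sod2, and it was farther for the other 8 members, up to 2586417 nt for Gclc (Dst). The nearest upstream unit on either strand was 10614 nt away for Gsr (Ubxn8), 28444 nt for the Prdx1 unit (Akr1a1) and 30542 nt for Keap1 (Atg4d). Each of these neighbours lies on the strand opposite to the member.

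The seasonal step from SA to IBA, both warm, moved 0 of 10 members past 0.05 or 0.001 in edgeR, DESeq2 or limma-voom, beside 5.22% and 0.0158% of all units in edgeR. Of all units 221 passed 0.001 at this step in DESeq2 and 1 in limma-voom. With an unadjusted p in edgeR, 3 of 10 were under 0.05, beside 22% of all units. The lowest adjusted p were those of the Txnrd1 unit (log2 fold change -0.55, SE 0.21, adjusted p = 0.14) and Sod1 (0.57, SE 0.22, adjusted p = 0.16). For Sod1 the 3 IBA libraries were above the 3 SA libraries, and for the Txnrd1 unit, Sod2, the Prdx1 unit and Gsr they were below. Groups that did not overlap were thus found for 5 of 10, beside 27.9% of all units.

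Per kb of unit the transcription of the members differed by an order of magnitude. Over all 14 libraries Sod1 (20.6 CPM per kb) and the Cat unit (18.55 CPM per kb) had the highest levels. Nfe2l2 followed at 8.21 CPM per kb. Keap1, the Gclm unit and the Prdx1 unit were close together at 5.67, 5.47 and 5.395 CPM per kb, and the Txnrd1 unit (4.04), Sod2 (3.92) and Gclc (3.30) came next. Gsr was lowest at 1.98 CPM per kb. The order changed with state. In IBA Sod1 (27.6 ± 1.56 CPM per kb, mean ± SD, n = 3) and the Cat unit (27.1 ± 6.77) were within the spread of each other. In LT the Cat unit (13.9 ± 2.53 CPM per kb, mean ± SD, n = 2) was followed by Sod1 (9.31 ± 0.153), the Gclm unit (7.997 ± 0.277), Nfe2l2 (7.69 ± 0.359) and the Txnrd1 unit (7.297 ± 0.0598), of which the Gclm unit and Nfe2l2 were within 1 SD of each other. The highest state mean was 3.59 times the lowest for Sod1 (Ent over LT), 3.14 times for the Txnrd1 unit (LT over IBA) and 2.94 times for the Cat unit (SA over ET), and between 1.57 times (Keap1) and 2.34 times (Sod2) for the other members.

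A wider list of 157 genes in 8 roles around these members was examined in the same fit, of which 53 had a unit of their own and 37 lay in a merged unit. From warm to cold 20 of the 53 passed 0.001, 10 higher and 10 lower in the cold, a share of 37.7% beside 37% of all single-gene units. The median log2 fold change was 0.15, beside -0.07 over all single-gene units. From IBA to LT 11 passed, 8 higher and 3 lower, or 20.8% beside 17.6%. The wider list thus had the share of calls that the table had as a whole, and its genes differed in direction by role and within roles.

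**Figure D4:**
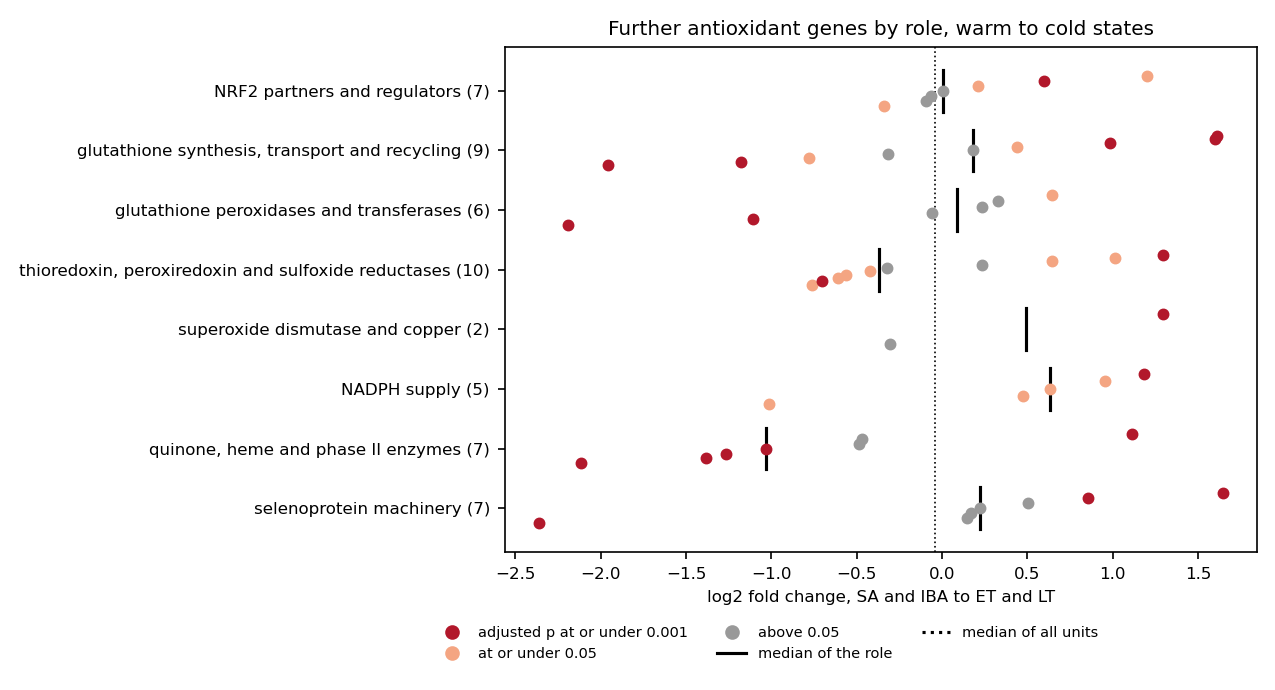
Log2 fold change from SA and IBA to ET and LT (horizontal axis) of the 53 further antioxidant genes with a unit of their own, by role (number of genes in brackets); dark red marks an adjusted p at or under 0.001, light red at or under 0.05, grey above 0.05, the black line is the median of the role and the dotted line that of all units. Genes of the quinone, heme and phase II enzymes lie mostly to the left and those of NADPH supply mostly to the right.

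By role, shares in brackets are of genes past 0.001 from warm to cold. They are to be set beside 37% of all single-gene units (859 higher and 881 lower of 4705). Around NRF2 itself, 7 genes had their own unit, and from warm to cold 1 rose past 0.001 and 0 fell (14.3%). This was Rbx1, the RING subunit of the cullin ligases that KEAP1 works with, from 65.7 ± 4.89 CPM in IBA (SD, n = 3) to 106.5 ± 6.16 in ET, with a log2 fold change from warm to cold of 0.60 (adjusted p = 8.9e-05). In glutathione synthesis, transport and recycling 3 of 9 rose and 2 fell (55.6%). Ggct, which breaks down gamma-glutamyl peptides, went from 11.2 ± 1.146 CPM in IBA to 49.1 ± 5.86 in LT (SD, n = 3 and 2), and Glo1, the glutathione-dependent glyoxalase, from 79.5 ± 9.67 to 274 ± 48.6. In SA the 2 genes stood at 22.2 ± 7.86 and 117.4 ± 21.3 CPM (SD, n = 3). Glrx3, a glutaredoxin, rose by a log2 fold change of 0.98 from warm to cold (adjusted p = 6.6e-06). Slc3a2, the heavy chain of amino acid transporters that include the cystine importer, fell from 33.1 ± 3.57 CPM in SA to 7.52 ± 2.08 in LT (SD, n = 3 and 2), and Cth, which makes cysteine from cystathionine, from 154.8 ± 10.7 to 55.7 ± 11.3. In IBA these 2 genes stood at 31.1 ± 6.43 and 117.5 ± 24.0 CPM (SD, n = 3).

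Among the glutathione peroxidases and transferases 0 of 6 rose and 2 fell (33.3%). GSTA2, a glutathione transferase of the alpha class, fell by 2.19 on the log2 scale from warm to cold (adjusted p = 4.2e-05), and Mgst1, a membrane-bound transferase, by 1.10 (adjusted p = 0.00012). Among the thioredoxins, peroxiredoxins and sulfoxide reductases 1 of 10 rose and 1 fell (20%), and 8 of 10 passed 0.05, with 3 higher and 5 lower, beside 65.1% of all single-gene units past 0.05. Txnl1, a thioredoxin-like protein of the proteasome, went from 112 ± 9.56 CPM in IBA to 316 ± 45.9 in ET (SD, n = 3 each). It stood at 136 ± 8.86 CPM in SA and 289.7 ± 37.9 in LT (SD, n = 3 and 2). The methionine sulfoxide reductase gene Msrb2 fell by 0.70 on the log2 scale from warm to cold (adjusted p = 0.00023). In the role of superoxide dismutase and copper 2 genes had a unit, of which Atox1, the copper chaperone, rose by a log2 fold change of 1.29 (adjusted p = 1.6e-05).

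Of the 5 genes of NADPH supply 1 rose past 0.001 from warm to cold (20%), and 4 were higher and 1 lower past 0.05, beside the same 65.1%. The riser was Pgd, of the oxidative arm of the pentose phosphate pathway, with a log2 fold change of 1.18 (adjusted p = 0.00055), and the gene lower past 0.05 was H6pd, whose enzyme makes NADPH in the endoplasmic reticulum (-1.01, adjusted p = 0.0012). Tkt, the transketolase of the pentose phosphate pathway, went from 41.25 ± 8.52 CPM in IBA to 100.5 ± 9.97 in LT (SD over 3 and 2 libraries), which is a rise of 1.28 on the log2 scale (adjusted p = 0.00041). It stood at 79.0 ± 21.2 CPM in SA and 77.9 ± 3.40 in ET (SD, n = 3 each). From warm to cold its log2 fold change was 0.63 (adjusted p = 0.0019), past 0.05 but not 0.001. Of the 7 quinone, heme and phase II enzymes 4 fell and 1 rose (71.4%), with a median of -1.03. The carbonyl reductase gene Cbr4 fell from 122 ± 19.3 CPM in IBA to 19.4 ± 3.97 in LT (SD, n = 3 and 2), and stood at 75.7 ± 31.7 in SA (SD, n = 3). Ugp2, which makes UDP-glucose for glucuronidation and glycogen, fell by 1.26 on the log2 scale from warm to cold (adjusted p = 3.6e-05) and the aldo-keto reductase gene Akr7a2 by 1.38 (adjusted p = 6.6e-05). The aldo-keto reductase gene Akr1a1 fell by 1.03 (adjusted p = 0.00019). The riser in this role was Fth1, named above, with a log2 fold change of 1.11 (adjusted p = 0.00013). Mgst1, Msrb2, Pgd, H6pd and Akr1a1 were named after their values were seen, to complete these counts.

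The selenoprotein machinery, on which Txnrd1 depends for its active site, was split. Of 7 genes 2 rose and 1 fell past 0.001 (42.9%). Sephs1, a selenophosphate synthetase family member, was at 63.4 ± 5.19 CPM in SA, 62.0 ± 7.16 in IBA, 138 ± 0.312 in Ent, 184.5 ± 21.0 in ET and 209 ± 39.3 in LT (SD, n = 3, and 2 in LT), and Sepsecs, which completes selenocysteine on its tRNA, rose by a log2 fold change of 0.86 from warm to cold (adjusted p = 3.3e-05). Selenop, the plasma selenium carrier that hepatocytes secrete, fell from 3547 ± 1069 CPM in IBA to 716 ± 155 in ET and 566 ± 288 in LT (SD, n = 3, 3 and 2), with a log2 fold change of -2.36 from warm to cold (adjusted p = 5.4e-05). Of the 9 hepatocyte markers given above 6 also fell past 0.001 from warm to cold, and a link to the fall of Selenop was not tested.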

How the data were processed

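GRO-seq of nuclei from frozen liver was analysed in 14 libraries. The authors trimmed the reads with cutadapt, aligned them with BWA to HiC_Itri_2, redefined gene bodies with fstitch, left out the first 500 nt, merged overlapping genes and counted reads with featureCounts; versions are not given in the sources used here. The deposited values are raw counts per unit and library, with no normalization by the authors. Groups and replicate numbers come from the sample titles; LT replicate 2 was not analysed here.

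Counts were normalized by TMM and fitted with edgeR 4.0.16 (R 4.3.3), quasi-likelihood, state as the only term, all 6324 units and 5 states in 1 model with no filter, and adjusted by Benjamini-Hochberg over all units at 0.001, with 0.05 beside it. The warm to cold contrast is the mean of ET and LT minus the mean of SA and IBA. Standard errors are the log2 fold change over the square root of F. For r, log2 CPM had a prior count of 2. State levels are means ± SD over animals.

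The members and lists were chosen with earlier results of these data known. All members are named, and from the wider list up to 5 single-gene units per role with the smallest p among those past 0.001 among the 5 states are named, or the first where none passed, and for Nfe2l2, Keap1, Sod1 and the Txnrd1 unit the 2 units with the highest r. Marker lists were for hepatocytes, macrophages, endothelial, stellate, cholangiocyte, erythroid and lymphocyte cells, and 1 further marker is not reported here.

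Each result was recomputed by limma-voom (limma 3.58.1) and DESeq2 1.42.0, and with upper-quartile and RLE scaling, uniquely mapped reads as library size, at least 10 counts in every library, single-gene units or compared states alone, an adjusted p of 0.05, season as a covariate, a block for the replicate number, each library left out and, chosen after seeing the data, adjusted deviances. The steps were tested on simulated data. Python 3.11.15, pandas 2.3.3, numpy 2.4.6 and matplotlib 3.10.9 were used for tables and plots. No genome sequence was used here.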

Additional observations from a re-analysis of the deposited data

How the results depend on the processing

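The number of the 10 members past 0.001 was 2 among the 5 states, 1 from Ent to ET, 3 from IBA to LT, 5 from warm to cold and 0 at the other steps. Among the 5 states it was 8 with DESeq2, where 3164 of all 6324 units passed in place of 1612, 4 with uniquely mapped reads as library size, where 1805 did, and 1 of 6 in a fit of single-gene units, which holds no merged unit. From Ent to ET it was 0 in a fit of those states alone, from IBA to LT 0 with season as a covariate, and from warm to cold 3 of 6 in the fit of single-gene units. At an adjusted p of 0.05 it was 9 among the 5 states, 9 from warm to cold, 7 from IBA to LT and 3 from IBA to Ent. With each library left out it ranged from 1 to 4 among the 5 states (1 without IBA replicate 1 or 3 or either LT library, 4 without SA replicate 2), from 0 to 1 from Ent to ET, from 0 to 3 from IBA to LT (0 without either LT library, 1 without any IBA library), from 2 to 5 from warm to cold (2 without IBA replicate 1 or either LT library, 3 without IBA replicate 3), and stayed at 0 (lowest and highest) from SA to IBA, IBA to Ent and ET to LT. A fit that leaves out an LT library assumes that the other one varies like the other groups.

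Scaling by uniquely mapped reads moved the median of all units from -0.04 to 0.18 from warm to cold. Against this shift of 0.23, the warm to cold value of Gclc turned from -0.22 to 0.0041, and the adjusted p of Nfe2l2 and the Prdx1 unit rose to 0.072 and 0.14; the cause was not tested. The replicate number as a block gave 4 members from warm to cold, with adjusted p of 0.0011 for Keap1 and the Cat unit and 0.00073 for the Gclm unit, and the same counts past 0.001 as without it elsewhere. Past 0.05 it gave 10 members among the 5 states in place of 9 and 2 from IBA to Ent in place of 3, with an adjusted p of 0.071 for the Cat unit. The numbers do not pair the animals: over 26 pairs of libraries with the same number, the correlation of deviations from the state means was between -0.263 and 0.234, and 3 of 14 libraries correlated best with their own number. Of 212 values of the members under alternatives other than leaving out a library 191 kept their direction and side of 0.001, as did 243 of 294 with a library left out. These tallies do not follow calls at 0.05, and a value above 0.001 in the main fit that lost 0.05 counts as kept. Keap1 from IBA to LT, for example, went from an adjusted p of 0.012 to 0.18 with season as a covariate. Season as a covariate could not be fitted among the 5 states or in contrasts with ET, which has a season of its own. With 2 or 3 animals per state, groups were too small for a test of outlying libraries, and the standard errors given set what could be detected.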
